A study of Homo sapiens with 12 samples.

Results

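The caveolae coat genes CAV1, CAV2, PTRF, SDPR, PRKCDBP and EHD2 were followed across 12 RNA-seq libraries of A375, a human melanoma cell line, that carried different mutants of the transcriptional coactivator YAP. The 6 genes were taken by name from the deposited table, where they lie on 5 of 31585 distinct loci. CAV1 and CAV2 share 1 locus, so that their values cannot be told apart, and it is called the CAV1/CAV2 locus here. That locus also carries the symbols DQ656015, EF070117, EF070119 and EF070122.

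Every group was an A375 line infected with an MSCV retrovirus with a hygromycin resistance cassette and then selected with hygromycin. Control cells carried the empty vector. YAPS127A cells carried human YAP with the S127A substitution, which prevents cytoplasmic sequestration of YAP after phosphorylation by LATS kinases. YAP2SA cells carried S127A together with S381A, the latter at a LATS site that marks YAP for degradation. YAPS127A,S94A cells carried S127A together with S94A, which prevents binding to the TEAD transcription factors. Each group was 1 transduced line plated 3 times and lysed 24 h later according to the sample records, although the methods text gives a longer culture. The p-values therefore measure the spread between platings of 1 line, and a difference between lines that arose during transduction or selection cannot be told apart from the construct. The titles of the YAP2SA libraries give S127A and S381A, whereas their condition field and the design text also list S94A, and the libraries were taken by title.

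Caveolae are small flask-shaped pits of the plasma membrane that buffer membrane tension and organize lipids and signalling receptors. Caveolins are hairpin membrane proteins that oligomerize in cholesterol-rich membrane, cavins are cytosolic proteins that assemble on them as a peripheral coat, and the ATPase EHD2 sits at the neck and stabilizes the pit at the cell surface. YAP and TEADs are known regulators of caveolin and cavin genes, and caveolae are abundant in endothelial cells, adipocytes, muscle and fibroblasts.

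The promoters of the genes that differed between groups are shown because YAP acts through TEADs, which bind the MCAT element. The 250 bases before a transcription start come from RefSeq on GRCh38.p14, a different build from that of the deposited values (hg19), and are written 5′ to 3′ on the strand of the gene. The core letters of the MCAT element, CATTCC, or its reverse complement GGAATG, are in capitals. The CAV1 window is chr7:116524759-116525008 on the plus strand, the first of 3 for this gene, the EHD2 window is chr19:47713172-47713421 on the plus strand, and the SDPR window is chr2:191847089-191847338 on the minus strand.
CAV1: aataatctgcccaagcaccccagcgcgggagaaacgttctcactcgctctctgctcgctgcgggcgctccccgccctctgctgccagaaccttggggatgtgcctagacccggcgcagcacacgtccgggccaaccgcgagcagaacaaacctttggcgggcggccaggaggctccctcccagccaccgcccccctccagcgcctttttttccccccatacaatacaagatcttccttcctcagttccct
EHD2: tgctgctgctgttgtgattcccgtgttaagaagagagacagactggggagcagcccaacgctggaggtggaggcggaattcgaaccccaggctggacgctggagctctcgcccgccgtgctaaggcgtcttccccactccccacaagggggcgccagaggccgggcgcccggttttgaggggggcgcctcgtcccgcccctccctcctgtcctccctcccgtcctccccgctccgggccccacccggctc
SDPR: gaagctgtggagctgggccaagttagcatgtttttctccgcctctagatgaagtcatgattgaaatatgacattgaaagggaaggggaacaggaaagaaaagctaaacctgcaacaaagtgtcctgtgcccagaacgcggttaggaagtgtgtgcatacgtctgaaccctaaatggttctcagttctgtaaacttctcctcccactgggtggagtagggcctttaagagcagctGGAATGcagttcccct
SDPR, listed under its current symbol CAVIN2, held GGAATG with its first base 16 bases before the start. The letters were in none of the 3 CAV1 windows, the 2 CAV2 windows or the EHD2 window, and PTRF and PRKCDBP had no entry. Among all 35116 windows of the same length, 11.9% held the letters on either strand. A match in 1 of these 7 windows, of which the first 2 for CAV1 overlap, is therefore a description of sequence. It is not evidence of binding, which was not tested.

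Values are FPKM, fragments normalized to transcript length and to the mapped fragments of the library, deposited as log2(FPKM + 1). These values carry no read depth. The number of loci above 0 ranged from 20161 to 20656 over the libraries. The check of the vectors went against 1 label. YAP1, the gene the vectors encode, had 34.1 and 33.0 FPKM in Control replicates 1 and 2 but 172 FPKM in the library labelled Control replicate 3, within the 130 to 187 FPKM of the 9 libraries with a YAP vector. The CAV1/CAV2 locus in that library was at 45.8 FPKM, between the 46.7 and 44.9 FPKM of the other Control libraries. The YAPS127A,S94A libraries had 149 to 162 FPKM of YAP1 with 32.8 to 44.2 FPKM of that locus. High YAP1 with a CAV1/CAV2 level near that of Control was thus also seen with a YAP vector, so these values do not settle the label. The coat locus calls against Control were repeated without the library labelled Control replicate 3. Of 9 melanocyte and melanoma markers, PMEL, MLANA, TYR, TYRP1 and DCT were under 1 FPKM in every library. MITF was at 5.01 to 11.0 FPKM in Control and 30.1 to 41.0 FPKM in YAP2SA cells, and TYRP1 at 0.0281 to 0.152 and 0.660 to 0.949 FPKM. SOX10 was at 234 to 281 FPKM in Control and 4.53 to 7.25 FPKM in YAP2SA cells, and the summed level of the 9 markers was 366 to 454 FPKM in Control and 43.2 to 52.2 FPKM in YAP2SA cells.

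**Figure D1:**
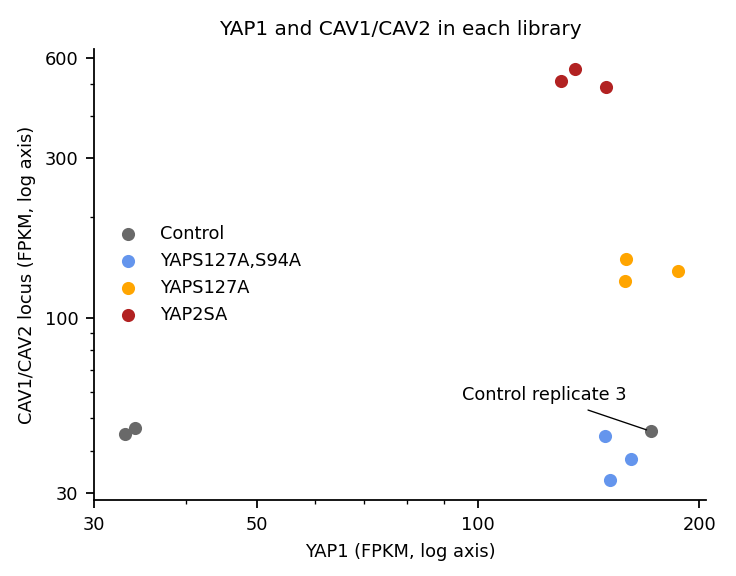
FPKM of YAP1 (horizontal, log axis) and of the CAV1/CAV2 locus (vertical, log axis) in each of the 12 libraries, 1 point per library and 1 colour per group. The library labelled Control replicate 3 has 172 FPKM of YAP1 with 45.8 FPKM of the CAV1/CAV2 locus, whereas the YAP2SA libraries have 130 to 149 FPKM of YAP1 with 491 to 554 FPKM of that locus. The YAPS127A,S94A libraries have 149 to 162 FPKM of YAP1 with 32.8 to 44.2 FPKM of that locus.

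The CAV1/CAV2 locus, PTRF and EHD2 were upregulated in YAPS127A cells and more so in YAP2SA cells, while PRKCDBP was at 56.1 to 73.3 FPKM in every library and passed no test. In YAP2SA cells the CAV1/CAV2 locus was 11.3-fold, EHD2 3.87-fold and PTRF 2.45-fold the Control mean FPKM. SDPR was listed at 0 in the 3 Control libraries and was detected in all YAPS127A and YAP2SA libraries. None of the 5 loci was called different between YAPS127A,S94A and Control cells, where 13 of all 15055 loci were called higher and 14 lower.

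**Figure D2:**
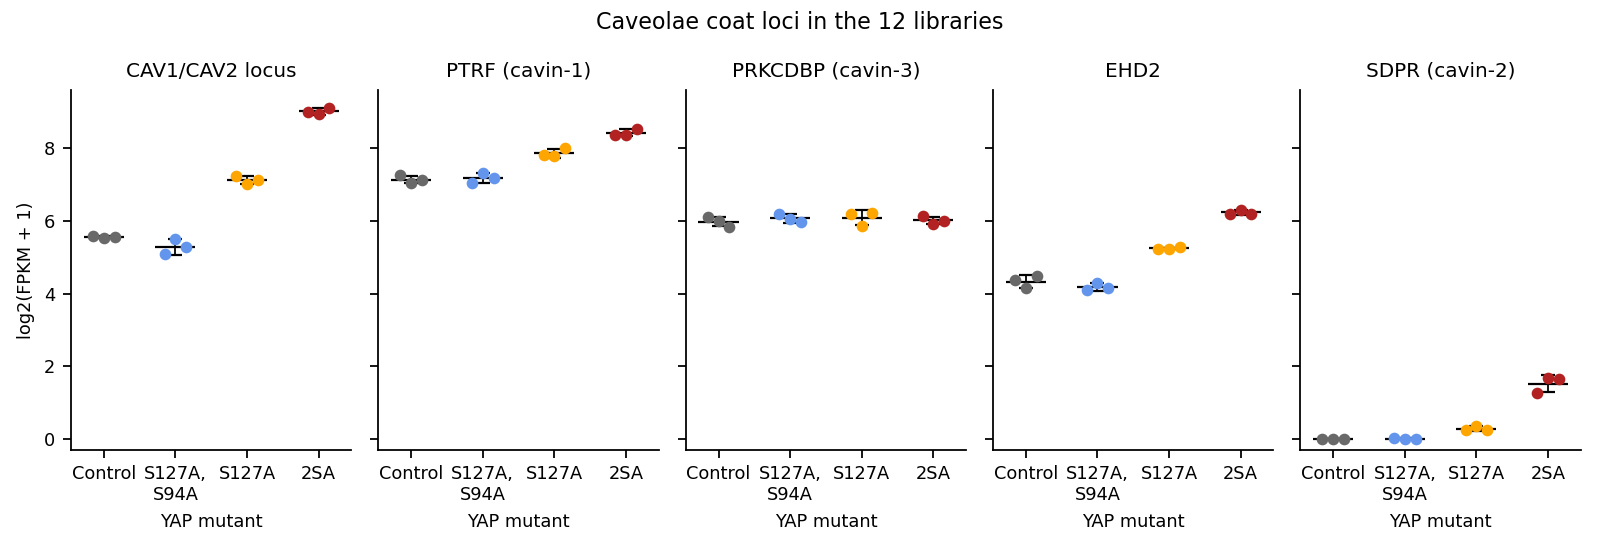
log2(FPKM + 1) of the 5 loci (vertical) in the 4 groups (horizontal), with 1 point per library, a horizontal bar at the mean of 3 libraries and an error bar of 1 SD. CAV1/CAV2, PTRF and EHD2 lie higher in every YAPS127A library than in any Control library and higher again in every YAP2SA library, whereas the PRKCDBP groups overlap and SDPR lies near 0 outside YAP2SA.

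The caveolins were examined first. CAV1 encodes the caveolin without which caveolae do not form outside striated muscle, and CAV2 encodes its partner, which depends on CAV1 to reach the cell surface. On GRCh37, CAV2 (chr7:115927434-116148595) and CAV1 (chr7:116165048-116201233) lie on the plus strand, 16452 bases apart. The CAV1/CAV2 locus had 46.7, 44.9 and 45.8 FPKM in the Control libraries, 32.8, 44.2 and 37.7 FPKM in the YAPS127A,S94A libraries, 150.0, 129 and 138 FPKM in the YAPS127A libraries and 509, 491 and 554 FPKM in the YAP2SA libraries. The 4 groups did not overlap, and every YAP2SA library was above every YAPS127A library. The log2 fold change against Control was 3.47 (SE 0.10) in YAP2SA cells, with an adjusted p of 1.1e-09 from limma with Benjamini-Hochberg adjustment, and it ranked 80 among the 15055 loci tested by its rise. In YAPS127A cells the log2 fold change was 1.58 (SE 0.10, adjusted p = 6.7e-06 from limma). The direct difference between YAP2SA and YAPS127A cells was 1.89 on the log2 scale (adjusted p = 1.9e-07 from limma), a ratio of mean FPKM of 3.73. In YAPS127A,S94A cells the log2 difference from Control was -0.26 (95% interval -0.48 to -0.05). Its unadjusted p was 0.0213 and its adjusted p was 0.986 from limma, so this locus was not called. For 1 pair of groups alone, exact two-sided permutation of the 6 libraries has a smallest possible p of 0.1.

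The cavins differed from one another. PTRF, now named CAVIN1 (chr17:40554467-40575274, minus strand), encodes the cavin that is required for caveola formation. It had 152, 130.4 and 139 FPKM in the Control libraries, 131, 159.8 and 146 FPKM in the YAPS127A,S94A libraries, 222, 218 and 255 FPKM in the YAPS127A libraries and 329.6, 331 and 369.7 FPKM in the YAP2SA libraries. The Control and YAPS127A,S94A libraries overlapped, and both lay below all YAPS127A libraries, which in turn lay below all YAP2SA libraries. The log2 fold change of PTRF against Control was 1.29 (SE 0.09) in YAP2SA cells (adjusted p = 1.1e-06 from limma) and 0.72 (SE 0.09) in YAPS127A cells (adjusted p = 0.000873 from limma). Between YAP2SA and YAPS127A cells it was 0.57 (adjusted p = 0.000872 from limma). Against Control, the YAPS127A,S94A cells differed by 0.05 on the log2 scale (95% interval -0.16 to 0.25).

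SDPR, now named CAVIN2 (chr2:192699036-192711814, minus strand), encodes a cavin that binds phosphatidylserine and can bend membrane. It was listed at 0 in the 3 Control libraries and in 2 of the 3 YAPS127A,S94A libraries, with 0.0203 FPKM in the other one. The YAPS127A libraries had 0.180, 0.289 and 0.178 FPKM and the YAP2SA libraries 1.38, 2.17 and 2.11 FPKM, so that the YAP2SA libraries lay above all others. SDPR reached the level required for testing only through its YAP2SA libraries, and it is therefore counted apart from the other loci. On the log2(FPKM + 1) scale, which compresses low values, YAP2SA cells were 1.52 above Control and 1.24 above YAPS127A cells, given without a test for that reason. For YAPS127A cells the difference from Control was 0.28 with an adjusted p of 0.21 from limma, and with a pseudocount of 0.1 in place of 1 it was 1.64 with an adjusted p of 0.0279. SDPR overlaps the antisense gene CAVIN2-AS1. CAV1, CAV2 and PRKCDBP also overlap noncoding genes on the opposite strand, and PTRF and EHD2 overlap noncoding genes on their own strand. Whether the counting used strand is not given in the sources used here.

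PRKCDBP, now named CAVIN3 (chr11:6340176-6341762, minus strand), encodes a cavin that binds protein kinase C delta and CAV1. It had 67.5, 63.4 and 56.1 FPKM in the Control libraries and 72.7, 65.8 and 61.2 FPKM in the YAPS127A,S94A libraries. The YAPS127A libraries had 72.1, 56.8 and 73.3 FPKM and the YAP2SA libraries 68.8, 59.8 and 62.4 FPKM, and the 4 groups overlapped. On the log2 scale PRKCDBP in YAP2SA cells differed from Control by 0.03 (95% interval -0.21 to 0.28, adjusted p = 0.844 from limma), and in YAPS127A cells by 0.11 (95% interval -0.14 to 0.35, adjusted p = 0.663 from limma). Without the library labelled Control replicate 3 these differences were -0.04 and 0.03. A rise in PRKCDBP of the size seen for PTRF lies outside both intervals.

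EHD2 (chr19:48216679-48246391, plus strand) had 19.6, 16.7 and 21.3 FPKM in the Control libraries and 16.1, 18.6 and 16.8 FPKM in the YAPS127A,S94A libraries, which overlapped. The YAPS127A libraries had 36.8, 36.4 and 37.6 FPKM and the YAP2SA libraries 72.7, 78.0 and 72.0 FPKM, with no overlap between these groups or with Control. The log2 fold change of EHD2 against Control was 1.90 (SE 0.08) in YAP2SA cells (adjusted p = 2.5e-08 from limma) and 0.92 (SE 0.08) in YAPS127A cells (adjusted p = 8.5e-05 from limma). Between YAP2SA and YAPS127A cells EHD2 differed by 0.99 on the log2 scale (adjusted p = 7.2e-06 from limma). In YAPS127A,S94A cells it differed from Control by -0.15 (95% interval -0.33 to 0.04).

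Leaving SDPR apart, 3 of the 4 remaining loci were higher in YAP2SA than in Control cells, where 22.9% of all tested loci were called higher and 19.5% lower. The same 3 loci were higher in YAPS127A than in Control cells, where 4.56% of all loci were called higher. In YAP2SA against YAPS127A cells these 3 loci were again higher, against 18.3% of all loci. In YAPS127A,S94A against Control cells 0 of the 5 loci were called by limma, where 13 of all 15055 loci were called higher (0.0864%) and 14 lower. Of the 5, 1 had an unadjusted p under 0.05 from limma, CAV1/CAV2 at -0.26. The share of all loci with such an unadjusted p is not given here. The comparisons with Control share the Control libraries. Between YAPS127A and YAPS127A,S94A cells, which share S127A and differ in S94A, the log2 difference was 1.84 for CAV1/CAV2, 0.67 for PTRF and 1.06 for EHD2, and these 3 loci were called (adjusted p = 2.2e-06, 0.00108 and 2.4e-05 from limma) where 6.36% of all loci were called higher. Between YAP2SA and YAPS127A,S94A cells the log2 difference was 3.74 for CAV1/CAV2, 1.24 for PTRF and 2.05 for EHD2, all called where 23.2% of all loci were called higher. Without the library labelled Control replicate 3, the log2 fold change in YAP2SA cells was 3.47 for CAV1/CAV2, 1.28 for PTRF and 1.98 for EHD2 (adjusted p = 2.6e-08, 1.2e-05 and 8.9e-08 from limma). In YAPS127A cells it was 1.58 for CAV1/CAV2, 0.71 for PTRF and 0.99 for EHD2 without that library, all called where 511 of all 15055 loci were called higher. In YAPS127A,S94A against Control cells 0 of the 5 loci were called by limma without it, against 13 higher and 19 lower of all 15055 loci.

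**Figure D3:**
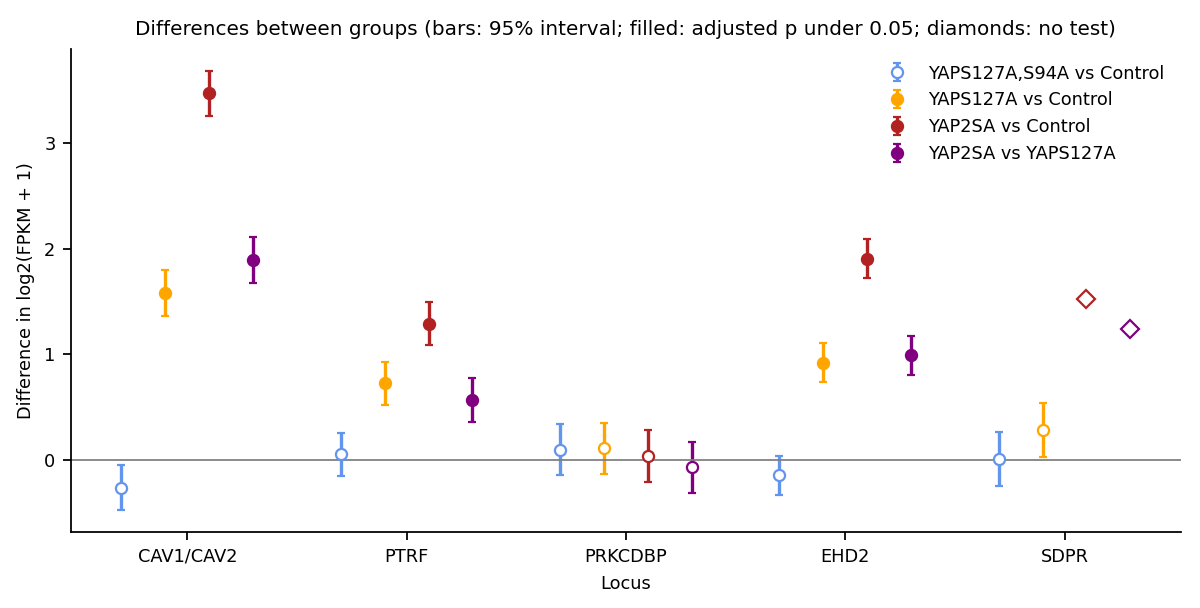
Difference in log2(FPKM + 1) (vertical) for each locus (horizontal) for each mutant against Control and for YAP2SA against YAPS127A, with bars giving the 95% interval from limma, filled points an adjusted p under 0.05 and diamonds the SDPR differences given without a test. CAV1/CAV2 lies at 3.47 in YAP2SA against Control, and all 4 intervals of PRKCDBP include 0.

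Fewer cells that express a gene and less RNA per cell cannot be told apart in these bulk libraries. Markers of other cell types rich in caveolae were compared alongside. Of 4 endothelial markers, PECAM1, VWF and CDH5 were under 1 FPKM in every library, and the 4, with KDR, summed to 0.784 to 1.45 FPKM in Control and 0.704 to 0.867 FPKM in YAP2SA libraries. Of 4 adipocyte markers, ADIPOQ and PLIN1 were under 1 FPKM, and the 4, with LPL and CIDEC, summed to 8.40 to 10.3 and 7.44 to 8.03 FPKM (Control and YAP2SA). Of 4 muscle markers, ACTA1, DES and MYH7 were under 1 FPKM, and the 4, with MYH11, summed to 2.57 to 6.37 and 1.41 to 1.91 FPKM. The 4 keratinocyte markers summed to 30.1 to 33.2 and 23.4 to 30.3 FPKM, with KRT1 under 1 FPKM, and all 4 leukocyte markers were under 1 FPKM in every library. The 6 fibroblast markers summed to 45.8 to 48.2 FPKM in Control, 43.4 to 52.0 FPKM in YAPS127A,S94A, 57.7 to 59.2 FPKM in YAPS127A and 81.2 to 89.6 FPKM in YAP2SA libraries, with COL1A2 and DCN under 1 FPKM throughout and PDGFRA and PDGFRB on loci that carry other genes too. The part of these genes, and of the melanocyte markers, in the coat gene differences was not tested.

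The order of the coat loci by FPKM, a level per transcript length, changed between groups. The CAV1/CAV2 locus pools both caveolins, whereas each other locus carries 1 symbol, so its place is not that of either caveolin alone. In Control cells the mean level was highest for PTRF at 140.2 ± 10.6 FPKM, followed by PRKCDBP at 62.3 ± 5.76, CAV1/CAV2 at 45.8 ± 0.925 and EHD2 at 19.2 ± 2.34 FPKM (SD, n = 3). In YAPS127A,S94A cells the order was the same. In YAPS127A cells CAV1/CAV2, at 139 ± 10.5 FPKM, stood above PRKCDBP at 67.4 ± 9.18 FPKM but below PTRF at 232 ± 20.1 FPKM (SD, n = 3). In YAP2SA cells CAV1/CAV2 was first at 518 ± 32.5 FPKM, followed by PTRF at 343 ± 22.8, EHD2 at 74.2 ± 3.28 and PRKCDBP at 63.7 ± 4.61 FPKM (SD, n = 3). SDPR was last in every group, at 1.89 ± 0.439 FPKM (SD, n = 3) in YAP2SA cells. No 2 neighbours in any of these orders overlapped between libraries of the group.

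The balance between the pooled CAV1/CAV2 locus and cavin-1 (PTRF) therefore differed between groups as well, which cannot be given to either caveolin alone. The ratio of CAV1/CAV2 to PTRF FPKM was 0.328 ± 0.0180 in Control, 0.262 ± 0.0130 in YAPS127A,S94A, 0.602 ± 0.0677 in YAPS127A and 1.51 ± 0.0313 in YAP2SA libraries (SD, n = 3). The 4 groups did not overlap in this ratio. Over the 15400 ways to split the libraries into 4 groups of 3, the exact permutation p for a difference among groups was 6.5e-05, the smallest this design can give, and 0.000162 after Benjamini-Hochberg adjustment over the 5 ratios computed. The ratio of CAV1/CAV2 to EHD2 was 2.41 ± 0.274 in Control and 7.00 ± 0.700 in YAP2SA libraries, and that of EHD2 to PTRF was 0.137 ± 0.0144 and 0.217 ± 0.0208 (SD, n = 3), with an exact permutation p of 0.00026 over the 4 groups for both (adjusted p = 0.000325). For single loci the same exact permutation test gave 6.5e-05 for CAV1/CAV2, 0.000455 for PTRF, 0.000195 for EHD2 and 0.763 for PRKCDBP.

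**Figure D4:**
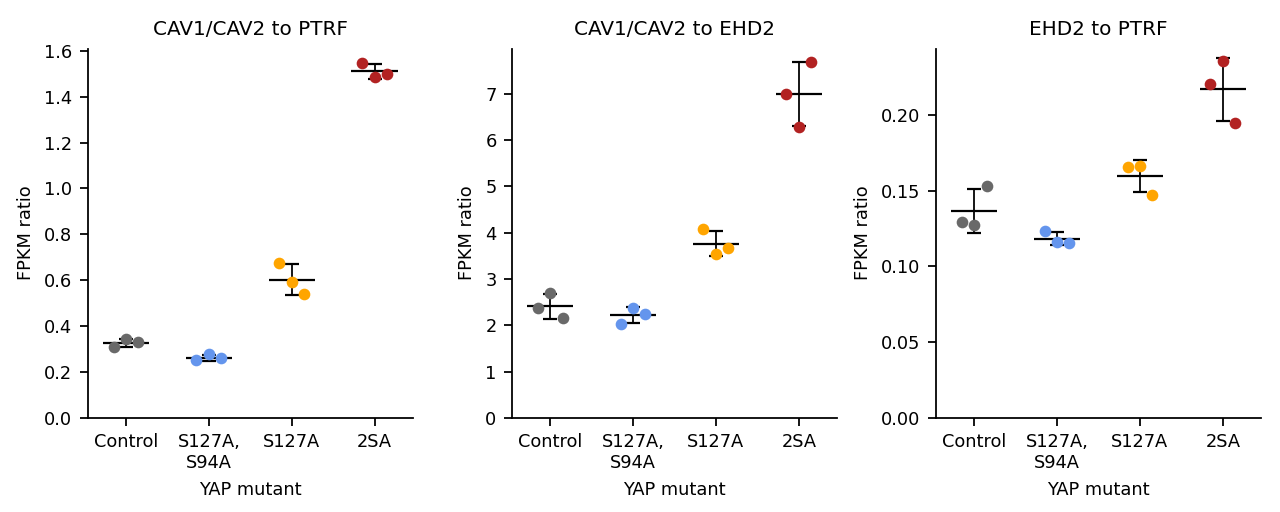
Ratio of FPKM between coat loci (vertical, linear from 0) in the 4 groups (horizontal), with 1 point per library, a horizontal bar at the mean of 3 libraries and an error bar of 1 SD. The ratio of CAV1/CAV2 to PTRF lies at 0.308 to 0.344 in Control and at 1.48 to 1.54 in YAP2SA libraries, and the ratio of EHD2 to PTRF at 0.128 to 0.153 and 0.195 to 0.236.

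For scale, CTGF, CYR61 and ANKRD1, widely used YAP target genes, had log2 fold changes of 2.11, 2.57 and 3.39 in YAP2SA against Control cells and of 0.93, 1.17 and 1.55 in YAPS127A against Control cells, all of them called by limma. As a ratio of mean FPKM, without the added 1, YAP2SA cells were at 4.62 times Control for CTGF, 6.27 for CYR61 and 23.0 for ANKRD1, against 11.3 for the CAV1/CAV2 locus. ANKRD1 had 0.335 to 1.26 FPKM in Control libraries. The loci whose log2 values over the 12 libraries followed the CAV1/CAV2 locus most closely were SERPINB7, CNN3, ARHGAP29, EPS8L2 and CRIM1, with Pearson r between 0.997 and 0.998. EHD2 stood at rank 30 of the 15054 other loci with an r of 0.995, PTRF at rank 217 with 0.982 and PRKCDBP at rank 7732 with -0.03. SDPR, at rank 988 with 0.936, was among the tested loci only through its YAP2SA libraries, so its likeness carries no support. These correlations rest on 4 groups of 3 libraries and on the shared lines, and 1465 loci exceeded an r of 0.9.

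Other genes of caveola structure and turnover changed in both directions. Of 14 such genes, 11 were tested, and in YAP2SA against Control cells 5 rose (PRKCA, FLNA, EHD1, EHD4 and PACSIN2), 2 fell (EHD3 and SRC) and 4 passed no test, against 22.9% of all loci called higher and 19.5% lower. The median log2 fold change was 0.09 against 0.01 for all loci. The loci of PACSIN2, EHD4 and SRC also carry ARFGAP3, SPTBN5 and AX747164, so that their values cannot be given to 1 gene. PACSIN2 was not called when Control replicate 1, the library labelled Control replicate 3, YAPS127A,S94A replicate 3, YAP2SA replicate 2 or YAP2SA replicate 3 was omitted. SRC was not called when Control replicate 1, YAPS127A,S94A replicate 2 or any 1 YAP2SA library was omitted. PRKCA, a protein kinase C that cavins recruit to caveolae, went from 4.61 ± 0.381 FPKM in Control to 14.3 ± 0.678 FPKM in YAP2SA cells (SD, n = 3), a log2 fold change of 1.45 (adjusted p = 5.5e-08 from limma). FLNA, the actin crosslinker filamin A that links caveolae to stress fibres, went from 181 ± 24.2 to 366 ± 13.9 FPKM (SD, n = 3), a log2 fold change of 1.02 (adjusted p = 6.5e-06 from limma). EHD1, an EHD2 paralog of endosomal recycling, rose by 0.85 on the log2 scale (adjusted p = 0.000246 from limma). CAV3 and MURC (cavin-4), the caveolin and cavin of muscle, and PACSIN1, the neuronal membrane-bending PACSIN, were below the level required for testing, with at most 0.0600, 0.582 and 0.0396 FPKM in any library. In YAPS127A against Control cells 3 of the 11 genes rose by limma (PRKCA, FLNA and EHD4), against 4.56% of all loci, and 5 were higher at an unadjusted p under 0.05. By limma 0 fell, and 0 were lower at an unadjusted p under 0.05. EHD4 was still called there when Control replicate 1, YAPS127A replicate 2 or YAP2SA replicate 1 was omitted, but not when any 1 of the other libraries was, the library labelled Control replicate 3 included. In YAPS127A,S94A against Control cells 0 were called by limma, against 13 higher and 14 lower of all 15055 loci, and 0 had an unadjusted p under 0.05.

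Clathrin coat genes and genes of the flotillin and stomatin family, not all of them endocytic, were compared with the same test. Of 16 clathrin coat genes, 15 were tested, 4 rose and 1 fell in YAP2SA against Control cells, against 22.9% of all loci higher and 19.5% lower, with a median log2 fold change of 0.09. Without the library labelled Control replicate 3, or without YAPS127A replicate 2, 6 were higher, against 2988 and 3455 of all 15055 loci. CLTB, a clathrin light chain, rose by 1.14 (adjusted p = 3.7e-06 from limma), AP2B1, a subunit of the AP2 adaptor, rose by 0.52 (adjusted p = 0.000131 from limma), and DNM1, a dynamin, fell by 0.45 on the log2 scale (adjusted p = 0.00058 from limma). The heavy chain CLTC differed by -0.09 (adjusted p = 0.273 from limma). Of 10 flotillin and stomatin genes, 9 were tested, 5 rose and 1 fell, against the same 22.9% and 19.5% of all loci, with a median log2 fold change of 0.17. The higher calls were 3 without the library labelled Control replicate 3, YAPS127A,S94A replicate 3, YAP2SA replicate 2 or YAP2SA replicate 3, since STOML2 and ERLIN1 were then not called. Of all 15055 loci, 2988, 3321, 3068 and 3009 were higher in these 4 settings. ERLIN1 was also not called without Control replicate 1, nor STOML2 without Control replicate 2, YAPS127A replicate 1, YAPS127A,S94A replicate 1 or YAP2SA replicate 1. The FLOT2 locus also carries DHRS13. FLOT1 is on 8 loci and DNM1 on 2, and only the locus with the highest mean was read for each. FLOT1, a scaffold protein of flotillin microdomains, rose by 0.98 (adjusted p = 9.5e-06 from limma), FLOT2 rose by 0.39 (adjusted p = 0.00314 from limma), and STOM, the membrane protein stomatin, fell by 0.46 on the log2 scale (adjusted p = 8.2e-05 from limma). In YAPS127A against Control cells CLTB was the 1 clathrin coat gene called by limma, against 4.56% of all loci called higher, with 4 higher and 1 lower at an unadjusted p under 0.05. CLTB was not called there without Control replicate 1, the library labelled Control replicate 3, YAPS127A replicate 1 or YAPS127A replicate 3. By limma 0 flotillin and stomatin genes were called, with 1 higher at an unadjusted p under 0.05. In YAPS127A,S94A against Control cells 0 genes of either list were called by limma, against 13 higher and 14 lower of all 15055 loci. At an unadjusted p under 0.05 there were also 0.

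**Figure D5:**
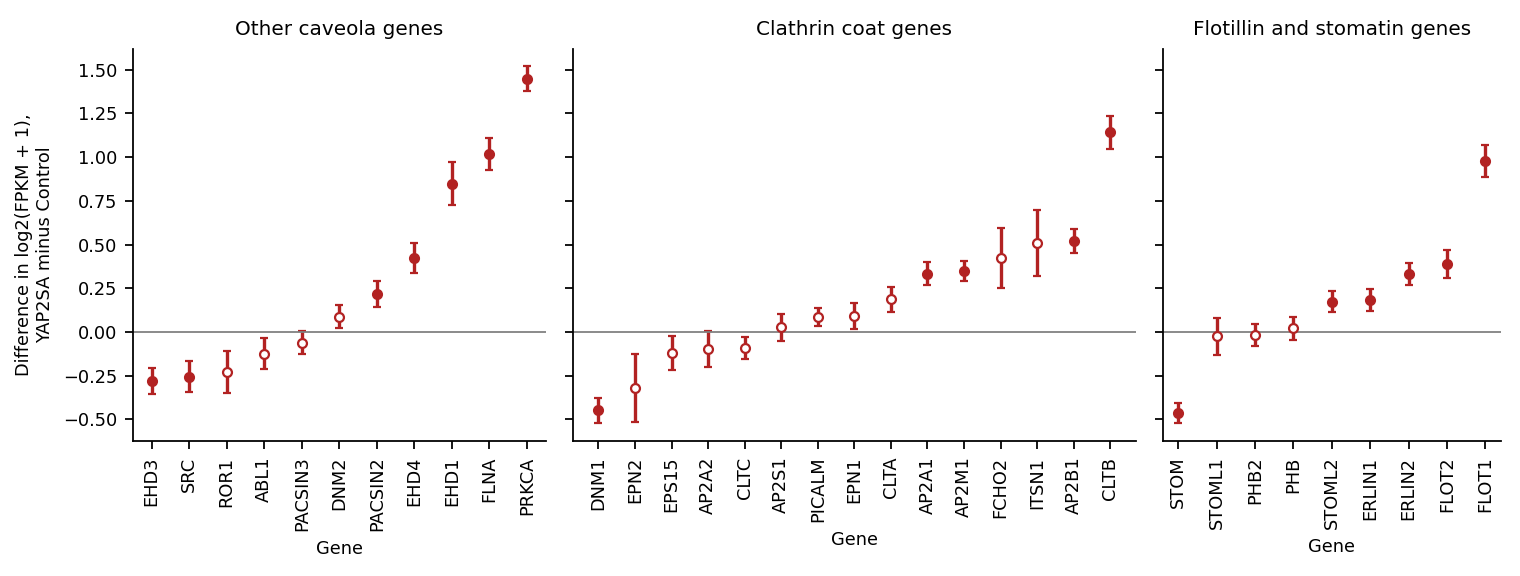
Difference in log2(FPKM + 1) between YAP2SA and Control cells (vertical) for each tested gene (horizontal) of the other caveola, clathrin coat and flotillin and stomatin lists, with bars of 1 SE and filled points for an adjusted p under 0.05 from limma. PRKCA at 1.45, CLTB at 1.14 and FLOT1 at 0.98 are the highest of their lists, all below the 3.47 of the CAV1/CAV2 locus.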

How the data were processed

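RNA of 12 A375 libraries, 3 per group, was sequenced on the Illumina HiSeq2000 by the authors, who aligned reads to hg19 (UCSC known genes) and assembled transcripts; the submitters' processing notes name Bowtie2 2.0.0, TopHat2 2.0.4 and Cufflinks 2.0.2. The deposited table holds log2(FPKM + 1) per locus and library in 31588 entries, 3 of them identical to others and removed. Of the 31585 loci left, 2179 carry several symbols. Whole reads could not be recovered, since at most 25.5% of 698 to 925 low loci shared a step between libraries, so depth is unknown and no test for counts was run.

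The model had a mean for each group over all 12 libraries and was fitted with limma 3.58.1 (R 4.3.3), with an intensity trend, for 6 comparisons on the 15055 loci with at least 1 FPKM in at least 3 libraries, and a call was a Benjamini-Hochberg adjusted p under 0.05. Since 1 is added to the FPKM before the log2, fold changes of low genes are understated. On simulated data, 187 of 200 changed loci were recovered in YAP2SA against Control, with 7 others called. The changed loci lay above a set Control level and moved by set steps of at least 1 log2 unit. In the real comparison 22.9% of loci were called higher and 19.5% lower. Recovery of smaller changes, of low loci or with so many changed loci was therefore not measured. Plots used matplotlib 3.10.9 under Python 3.11.15.

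Where several loci carried a symbol, the one with the highest mean was used. Genes named were the 6 members, YAP1, CTGF, CYR61, ANKRD1, the 3 called genes with the largest change in each other list, caveola genes below the filter and the 5 loci most like CAV1/CAV2. EHD4, PACSIN2, EHD3, SRC, CLTC, STOML2 and ERLIN1 were named after their values were seen. The members and lists were chosen with earlier results of these data known. The exact tests over 4 groups, the 5 ratios and the neighbourhood of 250000 bases were chosen after the values were seen. Motif letters were first searched in whole windows of 300 bases, 14.0% of which held them, and then in the 250 bases before the start, with SDPR the matching member in both. Coordinates are from GENCODE on GRCh37. There were 22 alternatives to the main settings, listed with their effect in the closing section.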

Additional observations from a re-analysis of the deposited data

How the results depend on the processing

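Under 22 alternatives (a pseudocount of 0.1, 3 other filters, 2 scalings, no trend, a replicate block, only the libraries compared, a fold over 2 as well, and each library left out), 194 of 198 counts of calls, those of coat loci with SDPR included, stayed within 1.5 times the reported count. The other 4 moved when a fold over 2 was also required, a rule for which the share of all loci called is not given here. In YAPS127A against Control 1 coat locus, CAV1/CAV2, was then called in place of 3, and in YAP2SA against Control 2 other caveola genes in place of 7, 1 clathrin coat gene in place of 5 and 1 flotillin or stomatin gene in place of 6. Within the 1.5 times, the coat count also went from 4 to 3 in YAP2SA against YAPS127A and from 3 to 2 in YAPS127A against YAPS127A,S94A. PTRF was the locus lost in both, with ratios of mean FPKM of 1.48 and 1.60. With the replicate block CAV1/CAV2 (3.47), PTRF and EHD2 were called in YAP2SA against Control, as without it, and no other coat call changed. SDPR is also in the coat counts of comparisons with YAP2SA. It passed the filter only through its YAP2SA libraries, so its calls there carry no support. Reading each symbol from a locus of its own gave no value, since no such locus existed for a gene on a shared one. Whether the replicate numbers pair the libraries is not stated. The deviations of libraries with the same number correlated at -0.149 to 0.163 over 18 pairs. Those with different numbers correlated at -0.119 to 0.188 over 36 pairs. These correlations run over all tested loci, so they cannot exclude a shared batch at some of them. Among single genes, 612 values kept direction and side of the threshold. SDPR was called with a pseudocount of 0.1 in YAPS127A against Control (1.64) and against YAPS127A,S94A (1.55).

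The 10 values that changed sign were uncalled before and after. PRKCDBP in YAP2SA against Control was -0.0776 under quantile normalization and -0.04 to 0.091 with each library left out. In YAPS127A against YAPS127A,S94A it was -0.0139 under quantile normalization and -0.0522 to 0.129 with each library left out, and in YAP2SA against YAPS127A,S94A it was -0.119 to 0.0025 with each library left out. PTRF in YAPS127A,S94A against Control was -0.0215 to 0.123 with each library left out. SDPR gave no value under a filter on a mean of 1 FPKM. Depth is unknown, so how far it limits the SDPR values could not be assessed.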

Other observations

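Genes next to the coat genes were also read, within 250000 bases on GRCh37, a distance chosen after the values were seen. Of 51 such genes, 32 were tested, and in YAP2SA against Control cells 5 were higher and 6 were lower, against 22.9% and 19.5% of all loci. MET, a receptor tyrosine kinase 111017 bases from CAV1, rose by 1.40 on the log2 scale (adjusted p = 2.6e-06 from limma). TES, a focal adhesion protein, rose by 0.65 (adjusted p = 0.00137 from limma), while CAPZA2 differed by 0.10 (adjusted p = 0.149 from limma). TES lay 28597 bases from the GENCODE span of CAV2, which covers 221162 bases. Its distance from the RefSeq starts of CAV2 was not computed. Near SDPR, NABP1 rose by 1.34 and TMEFF2 by 2.27 (adjusted p = 8.5e-06 and 1.2e-08 from limma). The STAT3 locus, which also carries AK024535 and AK092965, 13909 bases from PTRF, fell by 0.73 on the log2 scale (adjusted p = 5.6e-06 from limma), in the opposite direction to PTRF. The loci read for NAGLU, MLX, RETREG3 and GHDC near PTRF, and for TIMM10B near PRKCDBP, were also called lower. APBB1, near PRKCDBP, was the remaining gene called higher. No tested gene near EHD2 was called. In YAPS127A against Control cells MET rose by 0.61 and TMEFF2 by 0.71 (adjusted p = 0.00815 and 0.000837 from limma).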
